A study of Mus musculus with 6 samples.

Results

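The clock protein kinases and ubiquitin ligases described here are 8 genes taken by name, Csnk1d, Csnk1e, Csnk1a1, Csnk2a1, Csnk2a2, Csnk2b, Gsk3b and Btrc. Every probe set whose platform annotation gave one of these symbols, and no other, was counted. This gave 26 probe sets for 7 of the 8 genes, out of 22626 probe sets and 12393 genes in the table. No probe set carried the symbol Csnk2b, so the regulatory subunit of casein kinase 2 was not analysed here. Signals came from the suprachiasmatic nucleus (SCN) of adult male C57BL/6 mice aged 2 to 4 months and kept in 14 hours of light and 10 hours of darkness. The light pulse mice (light arrays below) had 30 minutes of light at 2400 lux beginning 1 hour after lights off, while the sham light pulse mice (sham arrays below) stayed in the dark. Tissue was collected 1.5 hours after lights off. Each group had 3 arrays, each hybridized with RNA pooled from the laser-captured SCN of 3 mice and amplified linearly in 2 rounds from 1 ng. Values of single arrays are given in the order of replicates 1, 2 and 3. The labels name no transgene, mutation or drug in either group.

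The proteins of the circadian clock are timed largely after translation. Casein kinase 1 delta and epsilon, encoded by Csnk1d and Csnk1e, bind and phosphorylate the PERIOD proteins. Phosphorylated PERIOD is recognized by beta-TrCP, the F-box protein encoded by Btrc, which brings it to an SCF ubiquitin ligase for destruction by the proteasome. Casein kinase 2 and glycogen synthase kinase 3 beta (Gsk3b) phosphorylate further clock proteins, including BMAL1, PER2, CRY2 and REV-ERB alpha, and casein kinase 1 alpha (Csnk1a1) is best known for priming beta-catenin for the same ligase. The comparison asked whether the transcripts of these enzymes changed in the SCN by the end of a light pulse that shifts the clock.

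Genes induced by light in the SCN often carry the cAMP response element (CRE), whose core is TGACG or, read on the other strand, CGTCA. RefSeq promoter windows (GRCm38.p6) reached from 250 bases before to 50 bases after a start site. Those of 5 of the 8 genes were searched, in 10 windows. They belonged to Csnk1e, Csnk2a1, Csnk2a2, Csnk2b and Gsk3b. No window of Csnk1d, Csnk1a1 or Btrc was searched. The study searched a longer region before the start codon for elements conserved between mammals, which is a different measure. It listed a conserved CRE and a TATA box for Csnk1d and neither for Csnk1e. A chromosome left out of the members' search was kept in the counts over all windows. The complete palindrome TGACGTCA was in 0 of the 10 windows and in 1.79% of all 32851 windows. The core was in 3 of the 10 windows, against 20.8% of all windows, and TATAA (or TTATA on the other strand) was in 2 of the 10, against 24.9%. The first Csnk1e window, the Csnk2a1 window and the Gsk3b window are shown because they hold the only cores and TATAA letters found in members with a probe set. Capitals mark CGTCA in the Csnk1e window at chr15:79442094-79442393 (minus strand), where it begins 72 bases before the start. The next Csnk1e window, which overlaps the first, holds the same site 158 bases before its own start. In the Csnk2a1 window at chr2:152226590-152226889 (plus strand) capitals mark TATAA, 91 bases before the start. In the Gsk3b window at chr16:38088751-38089050 (plus strand) they mark TTATA, 116 bases before it. The remaining core lay in the last of 3 Csnk2b windows, 67 bases before the start. Both strands were searched, and each match describes letters alone.
Csnk1e: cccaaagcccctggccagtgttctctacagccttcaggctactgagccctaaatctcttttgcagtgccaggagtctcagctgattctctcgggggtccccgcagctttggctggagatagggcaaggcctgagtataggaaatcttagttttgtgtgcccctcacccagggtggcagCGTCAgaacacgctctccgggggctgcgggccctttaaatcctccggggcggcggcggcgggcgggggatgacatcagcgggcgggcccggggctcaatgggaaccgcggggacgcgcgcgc
Csnk2a1: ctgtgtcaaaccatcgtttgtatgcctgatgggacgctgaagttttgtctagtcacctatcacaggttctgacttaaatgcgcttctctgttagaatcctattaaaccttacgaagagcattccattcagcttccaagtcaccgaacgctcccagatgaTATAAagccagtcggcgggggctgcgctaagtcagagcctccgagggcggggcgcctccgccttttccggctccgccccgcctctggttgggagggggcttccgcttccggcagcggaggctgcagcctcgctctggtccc
Gsk3b: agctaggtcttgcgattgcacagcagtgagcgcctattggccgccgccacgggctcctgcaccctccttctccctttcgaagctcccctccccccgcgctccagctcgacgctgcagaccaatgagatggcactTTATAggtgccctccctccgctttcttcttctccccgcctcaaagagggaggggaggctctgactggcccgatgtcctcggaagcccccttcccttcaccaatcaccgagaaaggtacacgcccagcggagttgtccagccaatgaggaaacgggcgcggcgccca

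Signals are intensities in arbitrary units on a linear scale, which the authors computed with MAS5 and scaled array by array. They were compared on the log2 scale with limma, which fits each probe set and steadies its variance with that of the others, with Benjamini-Hochberg adjustment over all probe sets tested. A probe set was tested if its rank 3 signal over the 6 arrays was at least 118.2, which kept 45.7% of all probe sets, chosen without regard to the groups. Of the 26 member probe sets 15 were kept. Just inside this limit lay a Csnk1d probe set (1418889_a_at) at 131.1 and the Gsk3b probe set at 139.8, and just outside a Csnk1e probe set (1417176_at) at 114.7 and a Csnk1d probe set (1449932_at) at 109.5. Because the 3 arrays of either group alone can carry a probe set past the limit, the 15 do not stand for all 26. Each gene is represented by its kept probe set of highest mean log2 signal. A different probe set has different binding, so signals are not set against each other between probe sets.

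Over the tested probe sets, log2 signals of 2 arrays correlated at 0.893 to 0.935 within groups and 0.886 to 0.934 between groups. All 8 SCN markers examined were among the tested probe sets. Their summed signal was 60788 to 72053 (sham arrays) and 71608 to 94252.5 (light arrays). For 2 of the 8, Vip and Grp, all light arrays lay above all sham arrays, against 5.62% of all tested probe sets. Their log2 fold changes were 0.43 (SE 0.19) and 0.17 (SE 0.20), and neither was called. Of the 8 markers 5 had estimates above 0, with a median of 0.09, while Calb1 (-0.18), Clock (-0.10) and Arntl (-0.10) lay below. Vip alone had signals from 30271 to 64589 and made up much of the summed signal. Light pulse replicate 3 stood apart in the choroid plexus gene Ttr, with a signal of 110323 against at most 295.6 on the other arrays. The summed signal of 5 measured choroid plexus and ependyma markers was 110688 there, against 144 and 339.2 on the other light arrays and 218.1 to 381.9 on the sham arrays. Ttr made up nearly all of the sum on that array, and only 2 of the 5 genes reached the filter value on any array. The sum over 5 endothelial markers was 1281 to 1769 (sham arrays) and 877.3 to 1292 (light arrays). Sums over astrocyte, oligodendrocyte, microglia and neighbouring hypothalamic markers overlapped between the groups. None of these markers was listed at 0. The part of these tissues in the values below was not tested, and values of the members without light pulse replicate 3 are given further on. In such captured tissue, fewer cells of a type and less RNA per cell cannot be told apart. Whether pools shared a mouse is not given in the sources used here, and the spread behind each p-value is that between these arrays.

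No member probe set passed the test for a change with the light pulse. Of the 15 tested, 0 passed limma at an adjusted p under 0.05, where 0.0677% of all tested probe sets did, and the smallest adjusted p of a member was 0.960. At an unadjusted p under 0.05 limma gave 0 of 15 members against 4.31% of all, and the Cyber-T test gave 0 of 15 against 4.27%. On the same arrays the 7 light-induced reference genes, among them Fos and Egr1, accounted for the 7 calls made, all higher. Fos was at 30.8-fold (95% confidence interval 19.3 to 49.1). The study had already reported all of these reference genes as light-induced from the same arrays. Calls of the reference genes are therefore no independent check of the test. The 7 representative probe sets of the members had a median log2 fold change of 0.16, and the median over all tested probe sets was 0.00. With single arrays left out the members' median was 0.49 without light pulse replicate 1, 0.28 without sham light pulse replicate 3 and 0.096 without light pulse replicate 2, and with the filter of 5000 probe sets, which tested 4 of the 7 genes, it was 0.32. Fold changes above 0 were found for 13 of the 15 member probe sets, against 50.1% of all tested. That count was 12 after quantile normalization and 9 without light pulse replicate 3, and several of the 15 read the same gene.

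**Figure D1:**
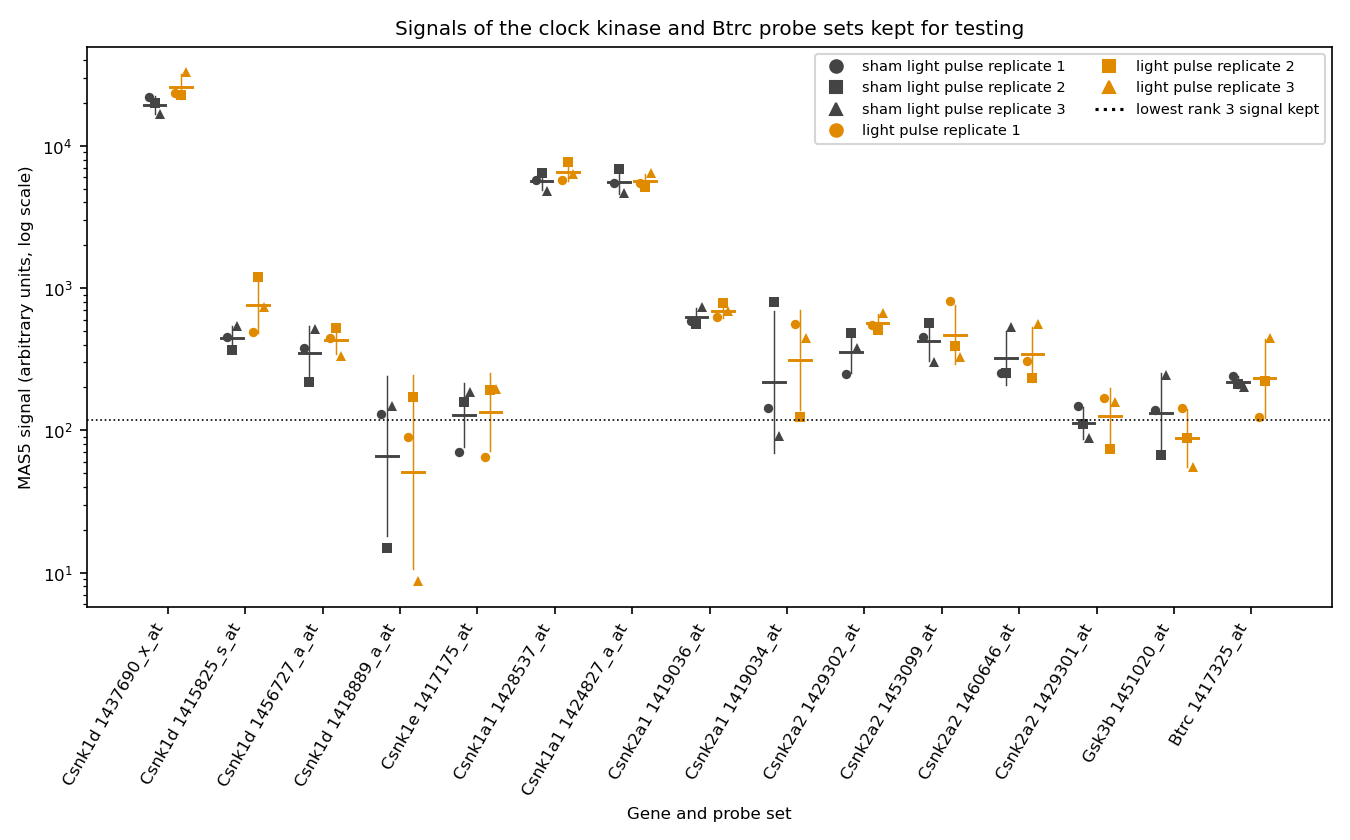
Signals in arbitrary units (log scale) of the 15 tested member probe sets on the 3 sham arrays (dark) and the 3 light arrays (orange). The mean and SD of the log2 signals in each group are drawn as a horizontal and a vertical bar, put back on the signal scale, and the dotted line is the filter at 118.2. Groups are apart only for Csnk1d 1437690_x_at and Csnk2a2 1429302_at.

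Csnk1d, the casein kinase 1 isoform that sets clock speed through PERIOD phosphorylation, was read by 5 probe sets, of which 4 were tested. The representative probe set (1437690_x_at) had signals of 22001, 19940 and 16639 on sham arrays and 23615, 22631 and 32798 on light arrays. Every light array lay above every sham array, light pulse replicate 3 being the highest. The means were 19527 ± 2705 (SD, n = 3) for sham arrays and 26348 ± 5607 (SD, n = 3) for light arrays. The log2 fold change was 0.42 (standard error, SE, 0.20), a fold of 1.34 with a 95% confidence interval from 0.998 to 1.80, which did not pass limma (adjusted p = 0.960). Without light pulse replicate 3, the array with the high Ttr signal, the log2 fold change was 0.25. In the manufacturer's naming, an ID ending in _x_at marks probes that may also bind other transcripts.

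The next Csnk1d probe set (1415825_s_at) had signals of 452.6, 363.9 and 536.6 on sham arrays and 487.0, 1200 and 739.0 on light arrays. In this case light pulse replicate 2 was the highest, and light pulse replicate 1 lay within the sham range. Its log2 fold change was 0.76 (SE 0.36, adjusted p = 0.960). The third probe set (1456727_a_at) ranged from 217.4 to 527.1 and had a log2 fold change of 0.30 (SE 0.37). The fourth (1418889_a_at) swung from 8.7 to 170.5, both on light arrays, and had -0.38 (SE 1.39). The fifth (1449932_at), below the filter, had signals between 3.5 and 154.1. Of the 4 tested, 3 thus had estimates above 0 and 1 below 0, and the interval of each reached 0.

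Csnk1e, the epsilon isoform in which the hamster tau mutation shortens the circadian period, was read by 2 probe sets, of which 1 was tested. Its tested probe set (1417175_at) gave 70.8, 158.9 and 185.9 on sham arrays and 64.8, 191.3 and 193.7 on light arrays. In each group 1 array lay below the filter value and the groups overlapped over nearly the whole range. The log2 fold change of 0.07 (SE 0.63) had a 95% confidence interval from -1.29 to 1.42, and its sign was negative after quantile normalization (-0.085) and without sham light pulse replicate 1 (-0.36), light pulse replicate 2 (-0.19) or light pulse replicate 3 (-0.20). The other Csnk1e probe set (1417176_at), drawn from the same source sequence and below the filter, gave 41.8, 10.5 and 82.2 against 129.0, 133.5 and 114.7. There the light arrays all lay above the sham arrays. From the fit of all probe sets its log2 fold change was 1.92, with an interval from 0.05 to 3.80 (adjusted p = 0.963). The difference between the 2 Csnk1e probe sets in log2 fold change was 1.86 (interval -0.25 to 3.96, adjusted p = 0.977 from limma over 7987 such differences).

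Csnk1a1, casein kinase 1 alpha, gave steady signals at its 2 tested probe sets. The representative one (1428537_at) had 5777, 6462 and 4820 on sham arrays and 5778, 7656 and 6302 on light arrays, and the groups overlapped. Its log2 fold change was 0.21 (SE 0.22), a fold of 1.16 with an interval from 0.830 to 1.61 (adjusted p = 0.960). The other (1424827_a_at) had 5515, 6876 and 4655 against 5446, 5126 and 6409. Its log2 fold change was 0.01 (SE 0.23), a fold of 1.00 with an interval from 0.714 to 1.41. Both estimates were thus small, and neither differed between the groups beyond the spread of the arrays. The third probe set (1451497_at), sharing its source sequence with the second, stayed between 3.1 and 36.0 on all arrays and was not tested.

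Csnk2a1, a catalytic subunit of casein kinase 2, had 2 of 6 probe sets tested, and they differed in spread. The representative one (1419036_at) had 582.3, 560.5 and 737.2 on sham arrays and 621.2, 783.2 and 687.2 on light arrays. The groups overlapped, and the log2 fold change was 0.16 (SE 0.29), a fold of 1.12 with an interval from 0.727 to 1.71. The second (1419034_at) had 142.7, 795.6 and 90.7 against 554.3, 124.0 and 444.0. High and low arrays occurred in both groups, and the log2 fold change was 0.52 (SE 0.72). The 4 probe sets below the filter ranged from 2.6 to 157.0, and 2 of them had estimates above 0 and 2 below.

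Csnk2a2, the other catalytic subunit, was read by 7 probe sets, of which 4 were tested. The representative one (1429302_at) had 247.3, 482.4 and 377.9 on sham arrays and 553.3, 510.8 and 662.6 on light arrays. All light arrays were above all sham arrays. The mean signal was 369.2 ± 117.8 (SD, n = 3) and 575.6 ± 78.3 (SD, n = 3), a fold of 1.61 as a ratio of geometric means with an interval from 0.977 to 2.64. The log2 fold change of 0.68 (SE 0.33) did not pass limma (adjusted p = 0.960), and without sham light pulse replicate 1, the lowest array, it was 0.42. The probe sets 1453099_at and 1429301_at come from the same source sequence as this one. Their log2 fold changes were 0.15 (SE 0.39) and 0.15 (SE 0.60). The fourth (1460646_at) had 0.08 (SE 0.42), and for all 3 the groups overlapped. The other 3 probe sets of the gene were below the filter, at signals from 1.2 to 243.2.

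Gsk3b, a kinase of BMAL1 and REV-ERB alpha that lithium inhibits, had 1 probe set (1451020_at) near the filter. It gave 139.8, 67.4 and 246.0 on sham arrays and 142.3, 87.6 and 54.9 on light arrays. Sham light pulse replicate 3 was the highest array and light pulse replicate 3 the lowest, and the groups overlapped. The log2 fold change was -0.59 (SE 0.70), with an interval from -2.09 to 0.92 (adjusted p = 0.961). Leaving out 1 array at a time moved it between -1.07 (without sham light pulse replicate 2) and -0.14 (without sham light pulse replicate 3). It was the only representative probe set of the 7 with an estimate below 0.

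Btrc, the F-box subunit that recognizes phosphorylated PERIOD, was tested at 1 of its 2 probe sets. That one (1417325_at) gave 241.1, 213.0 and 201.8 on sham arrays and 124.4, 223.8 and 445.7 on light arrays. The light arrays lay below, within and above the sham range. The log2 fold change was 0.09 (SE 0.47), with an interval from -0.92 to 1.09 (adjusted p = 0.988). Without light pulse replicate 3, the array with the high Ttr signal, it was -0.39. The other probe set (1425680_a_at) was below the filter, at 85.4, 7.7 and 111.0 against 25.9, 9.4 and 6.8.

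**Figure D2:**
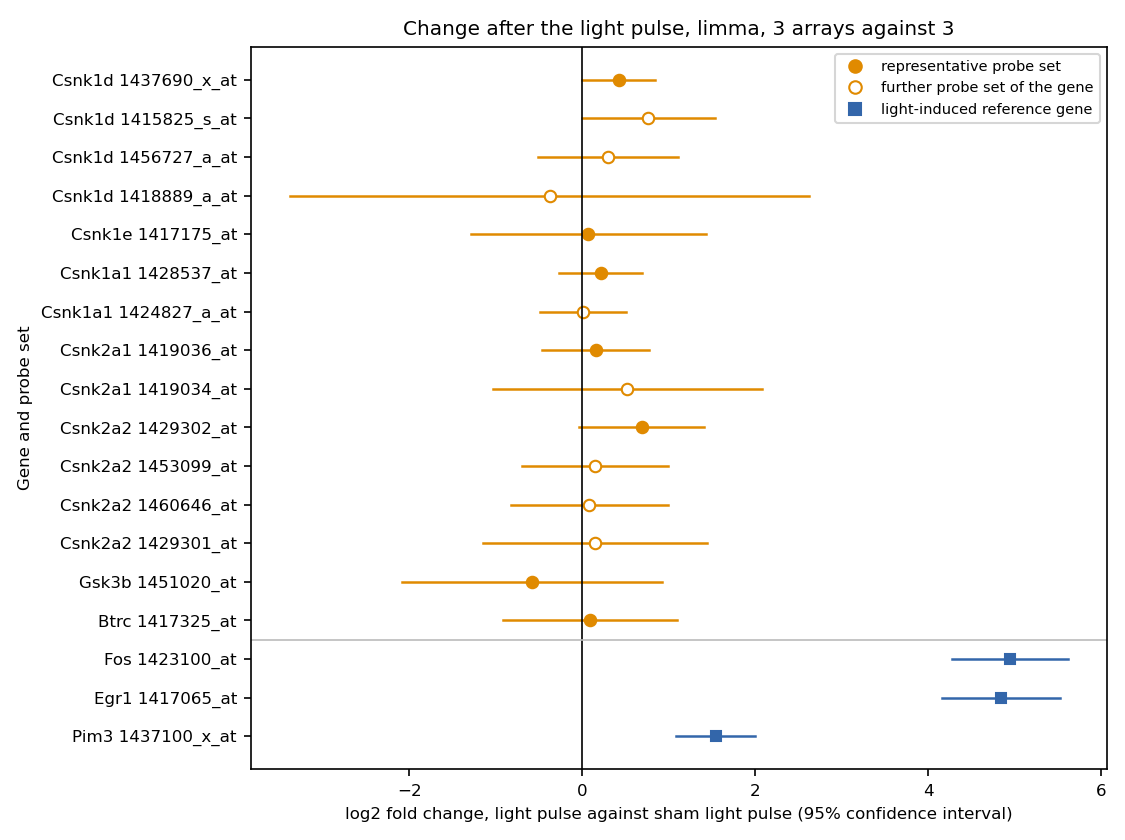
Log2 fold change of the light over the sham arrays with its 95% confidence interval from limma (3 arrays against 3) for the 15 tested member probe sets and, for scale, Fos, Egr1 and Pim3. Filled circles are representative probe sets and open circles further probe sets of a gene. Every member interval reaches 0, and the estimates run from -0.59 for Gsk3b to 0.76 for a Csnk1d probe set.

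Groups that did not overlap were found for 2 of the 15 tested probe sets, both with the light arrays higher, namely Csnk1d 1437690_x_at and Csnk2a2 1429302_at. Over all tested probe sets, 5.62% had the light arrays higher in this way and 4.46% had them lower, and 0 of the 15 members were lower. The 2 gaps were small. When each array was scaled to a common 75th percentile, sham light pulse replicate 1 reached 22396 for Csnk1d against 22312 on light pulse replicate 2. For Csnk2a2, sham light pulse replicate 2 reached 504.0 against 503.6 on light pulse replicate 2. With that scaling 0 of the 15 were apart. With 3 arrays in each group the smallest two-sided p of an exact permutation test is 0.1, so this separation cannot pass a threshold of 0.05 for any single probe set.

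Agreement within a gene was examined through the difference in log2 signal between each further tested probe set and the representative one of its gene, array by array. There were 8 such pairs in 4 member genes. In limma over all 2763 pairs of the table, 0 of the 8 passed at an adjusted p under 0.05 and 0% of all pairs did. At an unadjusted p under 0.05, 0 of the 8 passed, against 4.13% of all pairs. The pair of Csnk1a1 had the narrowest interval, with a difference in log2 fold change of -0.20 (95% confidence interval -0.64 to 0.23). For Csnk1d the differences from the representative probe set were 0.34 (-0.61 to 1.29), -0.12 (-1.16 to 0.91) and -0.80 (-4.30 to 2.71). For Csnk2a2 the 3 further probe sets lay below the representative one, by differences of -0.54 (-1.57 to 0.49), -0.60 (-1.59 to 0.38) and -0.54 (-1.96 to 0.89). For Csnk2a1 the difference was 0.36 (-1.50 to 2.23). Apart from Csnk1a1, these intervals are wide enough to hold a difference of more than 2-fold between probe sets of the same gene.

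**Figure D3:**
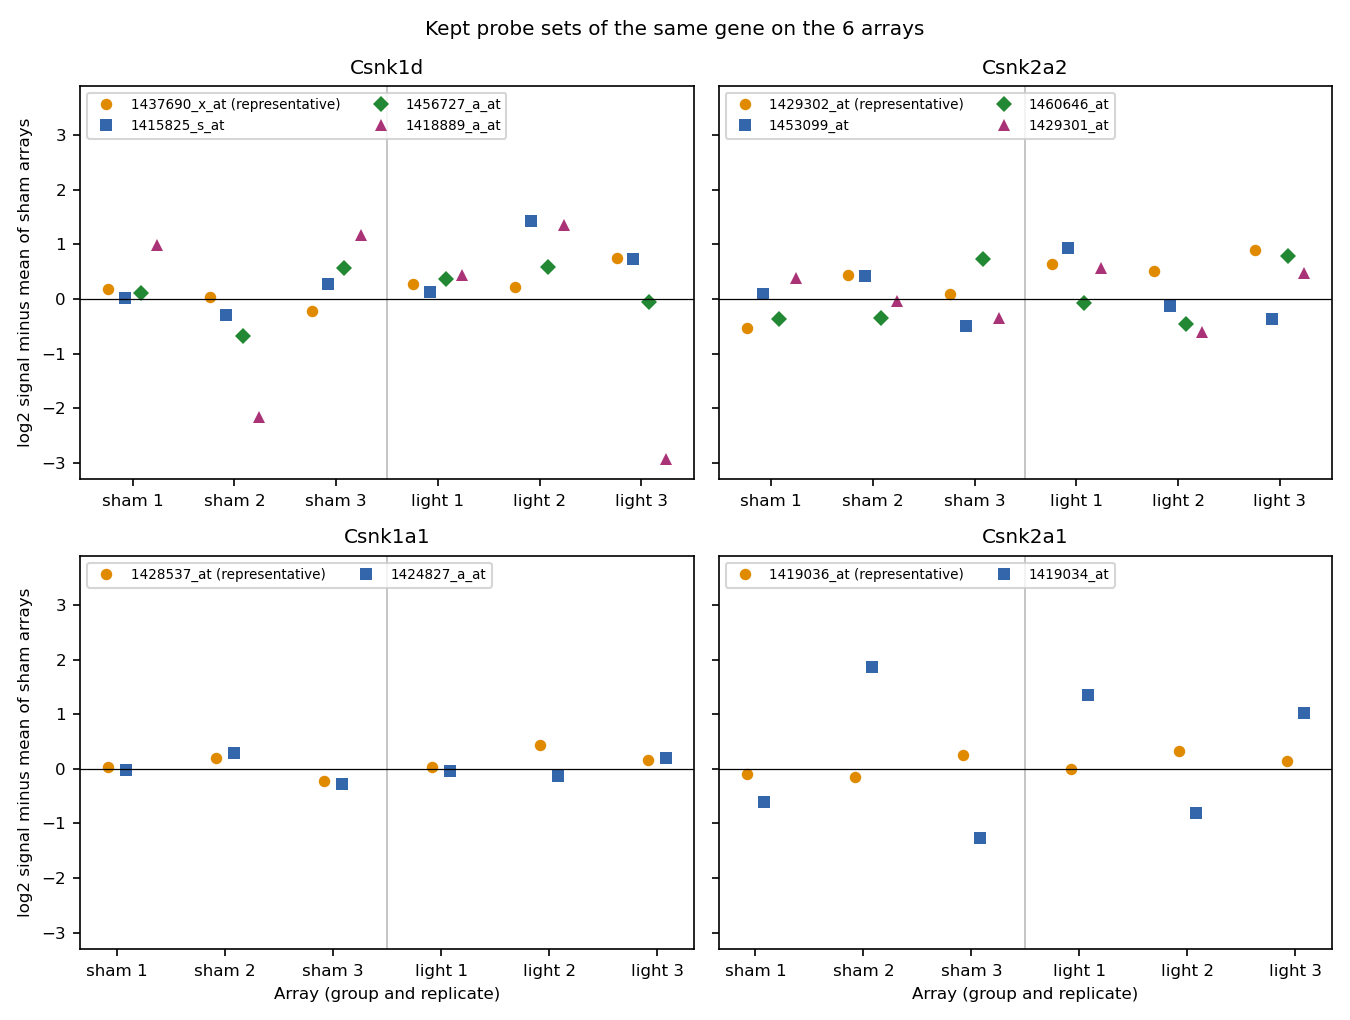
Log2 signal minus the mean of the 3 sham arrays, for each tested probe set of Csnk1d, Csnk2a2, Csnk1a1 and Csnk2a1 on the 6 arrays. The 2 Csnk1a1 probe sets stay close to 0 on all arrays, while Csnk2a1 1419034_at and Csnk1d 1418889_a_at depart from the other probe sets of their gene in both groups.

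The representative probe sets of the 7 genes make 21 pairs, whose log2 signals were correlated over the 6 arrays. Arrays of both groups entered each correlation, and the permutation did not keep the groups apart. By Pearson's r, the highest correlation was between Csnk1e and Csnk2a1, at r = 0.60 and rho = 0.60 (exact permutation p = 0.221 and 0.242, adjusted over the 21 pairs 0.733 and 0.803). Without the 2 arrays farthest from the Csnk1e median it was 0.89. By rank the highest was between Csnk1d and Csnk2a2, at rho = 0.83 and r = 0.55 (exact permutation p = 0.0583 and 0.244, adjusted 0.803 and 0.733), with r = 0.14 without the 2 arrays farthest from the Csnk1d median. The lowest r was between Csnk1a1 and Gsk3b, at r = -0.75 and rho = -0.71 (exact permutation p = 0.0889 and 0.136, adjusted 0.733 and 0.803), and -0.94 without the 2 arrays farthest from the Csnk1a1 median. For the representative probe sets of Csnk1d and Csnk2a2, every light array lay above every sham array. A positive rho for this pair therefore followed from the group split alone. Whether the pair varied together within groups was not tested. No pair passed the adjusted test.

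Single arrays moved the estimates to different degrees. Without light pulse replicate 3 the log2 fold changes of the representative probe sets were 0.25 for Csnk1d, 0.24 for Csnk1a1, 0.17 for Csnk2a1, 0.58 for Csnk2a2, -0.25 for Gsk3b, -0.20 for Csnk1e and -0.39 for Btrc. Over all 6 omissions Csnk1a1 ran from 0.10 to 0.31, Csnk2a1 from 0.07 to 0.28, Csnk1d from 0.25 to 0.52 and Csnk2a2 from 0.42 to 0.90. These 4 thus kept an estimate above 0, while Csnk1e ran from -0.36 to 0.59 and Btrc from -0.39 to 0.53.

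**Figure D4:**
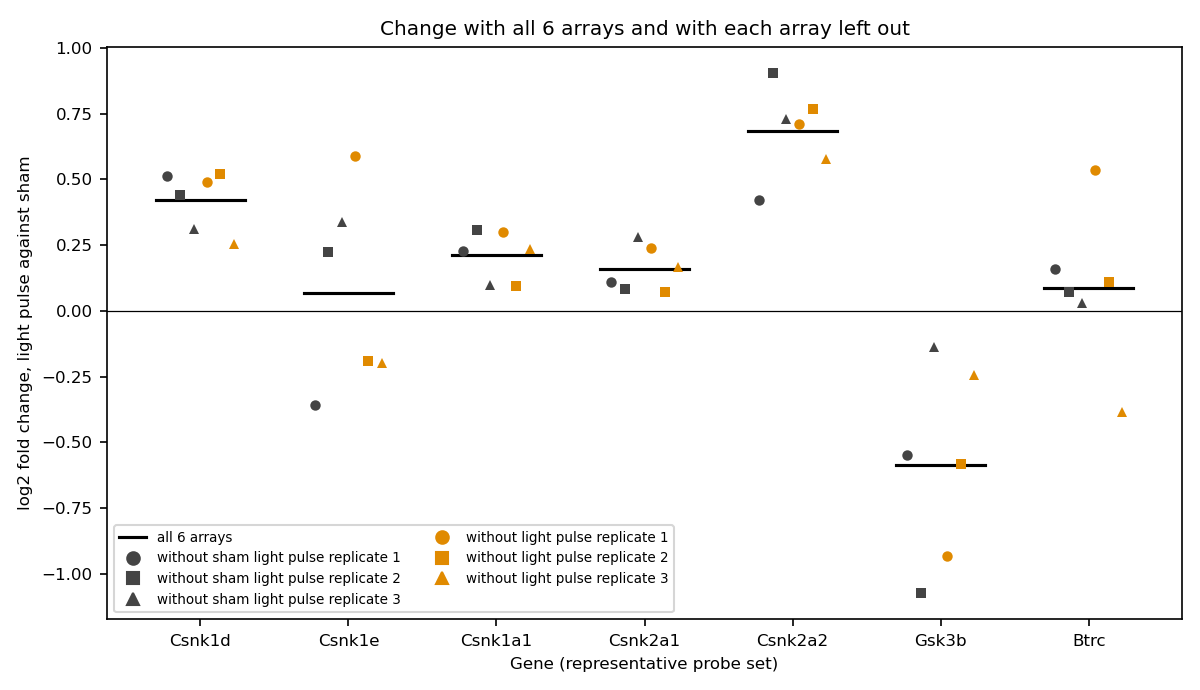
Log2 fold change of the representative probe set of each gene with all 6 arrays (black bar) and with each array left out (symbols). Csnk1d, Csnk1a1, Csnk2a1 and Csnk2a2 stay above 0 and Gsk3b below 0 in every case, while Csnk1e and Btrc change sign.

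Other enzymes that act on clock proteins, and the clock proteins themselves, were looked up in 6 lists of 59 genes, of which 52 had a probe set and 45 a tested one. Of the 45 representative probe sets 0 were called in either direction, and 0 had an unadjusted p under 0.05, against 4.31% of all tested. Their median log2 fold change was 0.02, and 23 of the 45 estimates lay above 0. Among the other casein kinase 1 and GSK3 genes 2 of 4 were tested. For Gsk3a, the alpha isoform of GSK3, the log2 fold change was 0.27 (SE 0.29), and for Csnk1g2, casein kinase 1 gamma 2, it was 0.29 (SE 0.40). Among 6 tested of 14 other kinases of clock proteins, with a median of -0.21, Mapk10, the neuronal JNK isoform, had -0.04 (SE 0.19) and the Nemo-like kinase Nlk -0.25 (SE 0.47).

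Of 8 genes for SCF subunits and other F-box proteins 5 were tested, with a median log2 fold change of 0.02. Fbxw11, the paralog of Btrc, had signals from 15758 to 23828 and a log2 fold change of 0.02, with an interval from -0.43 to 0.47. Skp1, the SCF adaptor, had 0.07 (SE 0.32). All 14 genes of other ubiquitin ligases and deubiquitinases were tested, with a median of 0.06. The ligase Arih2 had 0.31 (SE 0.24) and the deubiquitinase Usp7 0.16 (SE 0.22). All 8 phosphatase genes were tested, with a median of -0.06. Ppp2r1a, the scaffold of protein phosphatase 2A, had 0.30 (SE 0.18), and Ppp1cc, a catalytic subunit of protein phosphatase 1, had 0.02 (SE 0.18). The probe sets of Fbxw11, Arih2 and Ppp2r1a end in _x_at, as do those of Mapk10 and Pim3, so they may also bind other transcripts.

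Of 11 substrates 10 were tested, with a median log2 fold change of 0.14 and 0 called. Groups did not overlap for 3 of the 45 genes of the 6 lists with the light arrays higher, against 5.62% of all tested probe sets, and for 2 of the 45 with the light arrays lower, against 4.46%. The 3 higher were the substrates Per1, Per3 and Cry2. Their log2 fold changes were 0.86 (SE 0.41), 0.77 (SE 0.39) and 0.60 (SE 0.45). For Per1 the lowest light array, at 249.3, was barely above the highest sham array, at 245.7. By quantitative PCR the study detected no significant difference in Per1 or Per2 at this time, and an increase of both at a later one. The 2 lower were Ube3a, a ubiquitin ligase, at -0.55 (SE 0.28) and Ppp2r1b, the other scaffold of protein phosphatase 2A, at -0.66 (SE 0.32), where the highest light array had 681.8 and the lowest sham array 683.8. Per3, Ube3a and Ppp2r1b were named after their values were seen. Per2 had 0.24 (SE 0.33), Cry1 -0.13 (SE 0.30), Clock -0.10 (SE 0.29) and Arntl, which encodes BMAL1, -0.10 (SE 0.29). Ctnnb1, which encodes beta-catenin, had 0.15 (SE 0.24).

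The precision of the arrays differs between the members. By the upper end of the 95% confidence interval of their representative probe sets, the folds reach 1.61 for Csnk1a1, 1.71 for Csnk2a1, 1.80 for Csnk1d, 1.89 for Gsk3b, 2.13 for Btrc, 2.64 for Csnk2a2 and 2.68 for Csnk1e. By the lower end they reach 0.235 for Gsk3b, 0.409 for Csnk1e and 0.529 for Btrc. For Csnk1d, Csnk1a1, Csnk2a1 and Csnk2a2 the lower ends lie between 0.727 and 0.998. Pim3, the reference gene with the smallest change, had a fold of 2.92 (2.12 to 4.00). That estimate lay above the upper end for each of these representative probe sets, but its interval overlapped those of Btrc, Csnk2a2 and Csnk1e. Among further tested probe sets the upper end was 4.21 for Csnk2a1 1419034_at and 6.16 for Csnk1d 1418889_a_at.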

How the data were processed

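RNA from laser-captured SCN, pooled from 3 mice per array, was hybridized to 3 Affymetrix Mouse 430A 2.0 arrays per group. The authors made the deposited signal intensities with MAS5 (named in the submitters' processing notes, with no version) and scaled each array; control probe sets and present calls were not used here. Groups and replicate numbers came from the sample labels. The platform annotation gave 1 gene symbol for 20380 probe sets, several for 691 and none for 1555. Only probe sets with 1 symbol were named, and 0 symbols changed when looked up by Entrez ID in RefSeq.

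The log2 of the signals (no offset) was compared with limma 3.58.1 in R 4.3.3, two-sided and with a prior variance that follows the intensity, over the 10340 probe sets that ranked first by their rank 3 signal; p-values were adjusted by Benjamini-Hochberg with a threshold of 0.05. This number is that of the study, whose filter used present calls. Differences between probe sets of a gene were fitted with limma in the same way. Cyber-T, the test of the study's methods, was written anew from its description (window of 101 probe sets, prior weight 10). The steps were tested on simulated data with changes of 3 log2 units. These were larger than any member estimate, so that test does not bear on changes of the members' size. The number of arrays, 3 per group, limits the precision. Alternatives were quantile normalization, scaling to a common 75th percentile, a filter of 5000 probe sets or none, an offset of 50, no trend, Cyber-T, the replicate number as a block, each array left out and other choices of representative probe set. The genes named are all members, the 2 genes of highest mean signal in each list, the core substrates, the reference genes and the marker Ttr, by a rule on single arrays. Per3, Ube3a and Ppp2r1b, and the SCN markers Vip, Grp and Calb1, were added after their values were seen. The members and lists were chosen with earlier results of these data known.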

Additional observations from a re-analysis of the deposited data

How the results depend on the processing

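No member or other clock enzyme probe set was called under any of the alternatives run. No pair of member probe sets passed the test of their difference where it was run. Apart from Csnk1a1 the intervals of these differences were wide, so agreement within a gene was not shown. With each array scaled to a common 75th percentile, 0 member probe sets had groups that did not overlap, in place of 2. The Csnk1e log2 fold change was -0.085 after quantile normalization. With 1 array left out it ran from -0.36 to 0.59 and that of Btrc from -0.39 to 0.53. Without the intensity trend 4 probe sets of the table were called in place of 7. With a Csnk1d representative not ending in _x_at, a choice made after seeing the data, its log2 fold change was 0.76 in place of 0.42. That representative, 1415825_s_at, also carries a suffix, and no tested Csnk1d probe set has a plain _at ID. Of 178 alternative values, 171 kept their direction and side of the threshold or stayed close to the value reported. Many could not change, because the filter, the trend and the block leave the fold change of a probe set as it is. The count is therefore no measure of how steady the values are.

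The replicate numbers are not known to pair the arrays. Deviations from the group means correlated at 0.0958, -0.192 and -0.129 between arrays of the same number, and 2 of the 6 arrays correlated best with their own number. With the replicate number as a block, 0 member probe sets were called and 6 of the table in place of 7, and no member call changed.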
